A study of Mus musculus with 8 samples.

Results

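A set of 36 genes that mark microglia, or that microglia switch on when activated, was followed in the ventral tegmental area (VTA) of socially stressed and control mice. The genes were listed by role and read from the table of raw counts, which holds 54735 genes: 18 identity genes, 9 genes of the C1q complement component and of phagocytosis, and 9 activation genes. All 36 were found in the table and 28 passed the filter on low counts, comprising the 18 identity genes, the 9 complement and phagocytic genes and 1 activation gene.

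VTA punches were taken from DBA2/J mice labelled male and P21, although the study's methods place the collection 1 day after the last stress session, and 1 mRNA library per mouse was sequenced from the left and right punches combined. SS mice (n = 4) had been exposed as pups to a threatening adult mouse for 30 min a day, from postnatal day 14 to 21. The labels give this as 7 consecutive days, although daily sessions that include both end days would make more than 7. CTR mice (n = 4) had been left unhandled. No transgene or drug was given to either group, and the comparison of SS with CTR asked whether early social stress changed gene expression in the developing VTA.

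Microglia are the resident macrophages of the brain. They depend on signals through the receptor encoded by Csf1r, sense neurons and damage through receptors such as Cx3cr1 and P2ry12, and clear debris and synapses with the help of complement and of phagocytic receptors such as Mertk and Axl. On activation they can secrete cytokines and chemokines, among them those encoded by Il1b, Tnf and Ccl2, while homeostatic genes such as P2ry12 and Tmem119 tend to fall.

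The libraries held between 20036086 and 47319997 counts, and 3 counts, the limit that a count of 0 allows, corresponded to between 0.0622 and 0.155 counts per 1000000 (CPM). A limit of this kind covers counting error only. The intervals given below for log2 fold changes also include the spread between libraries. CTR-5 and SS-5 went against the male label: Xist had 14997 and 6551 counts in them and between 0 and 3 in the other 6 libraries, and genes of the Y chromosome (Kdm5d, Uty, Ddx3y, Eif2s3y) summed to 3 and 0 counts against 2293 to 7892. Values without these libraries are therefore also given for the set and for some of the members. Among 1989 genes with a mean level of 1 to 3 CPM, CTR-1 held 434 and CTR-2 held 354 at 0 counts, against 1 to 94 in the other libraries, so that low genes dropped out more often in these 2 CTR libraries.

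The label of the gene set fitted the tissue: apart from Ptprc and Trem2, at 0 in CTR-1, the tested microglial genes had counts in every library. Markers of blood leukocytes were nearly absent. The 36 genes summed to between 452 and 645 CPM in CTR libraries and between 456 and 484 CPM in SS libraries. The 8 blood leukocyte markers Ccr2, Ly6c2, S100a8, S100a9, Cd3e, Cd79a, Plac8 and Ms4a4b summed to between 0 and 0.930 CPM in CTR and between 0.0385 and 0.603 CPM in SS; none passed the filter, and Ms4a4b was at 0 in all libraries. The 8 markers of macrophages at the borders of the brain summed to between 4.34 and 10.02 CPM in CTR and between 6.49 and 7.91 CPM in SS, and 4 of them were tested. In RNA from whole punches, fewer microglia and less RNA per microglial cell cannot be told apart.

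The sequence before the start of these genes is of interest because many microglial genes are bound by the factor encoded by Spi1, itself one of the set, whose sites contain the letters GAGGAA. RefSeq promoters on GRCm38.p6 were matched for 26 of the 36 genes, and none was shown for the other members. The 250 bases before the start held GAGGAA on either strand in 15 of 26 members (57.7%) and in 6986 of all 27025 genes with a promoter (25.9%). A gene with more than 1 start was counted once, if any of its windows held the letters. The longer word GAGGAAGT, which contains the shorter one, was held by C1qc alone, 1 of 26 (3.85%), against 755 of 27025 (2.79%). A match describes the letters of this window and is no measured site. Of the windows, 5 are shown, from a lysosomal, a complement, a phagocytic and 2 cytokine genes that span the range from the highest to the lowest level in the set. They lie at chr3:95526536-95526785 on the plus strand (Ctss), chr4:136886201-136886450 on the minus strand (C1qb), chr17:48346151-48346400 on the plus strand (Trem2), chr17:35202008-35202257 on the minus strand (Tnf) and chr2:129371140-129371389 on the minus strand (Il1b). None of them overlapped an annotated exon of its own gene, and exons of other genes were not checked. Each is written 5′ to 3′ along the gene, and capitals mark GAGGAA or, where the match lies on the opposite strand (Trem2 and Tnf), its complement read along the gene.
Ctss: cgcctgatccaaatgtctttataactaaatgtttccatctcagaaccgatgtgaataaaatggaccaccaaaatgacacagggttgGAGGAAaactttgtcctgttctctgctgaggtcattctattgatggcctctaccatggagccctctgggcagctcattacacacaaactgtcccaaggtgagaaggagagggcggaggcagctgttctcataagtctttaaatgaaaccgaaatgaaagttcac
C1qb: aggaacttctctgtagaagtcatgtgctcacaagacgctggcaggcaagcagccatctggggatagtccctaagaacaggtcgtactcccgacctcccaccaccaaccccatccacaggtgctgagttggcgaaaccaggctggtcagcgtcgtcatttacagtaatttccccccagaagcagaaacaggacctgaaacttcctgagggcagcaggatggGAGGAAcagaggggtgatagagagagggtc
Trem2: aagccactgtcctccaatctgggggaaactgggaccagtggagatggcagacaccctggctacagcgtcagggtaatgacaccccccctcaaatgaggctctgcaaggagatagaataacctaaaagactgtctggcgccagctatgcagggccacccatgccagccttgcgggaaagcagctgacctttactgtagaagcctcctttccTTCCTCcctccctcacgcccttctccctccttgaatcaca
Tnf: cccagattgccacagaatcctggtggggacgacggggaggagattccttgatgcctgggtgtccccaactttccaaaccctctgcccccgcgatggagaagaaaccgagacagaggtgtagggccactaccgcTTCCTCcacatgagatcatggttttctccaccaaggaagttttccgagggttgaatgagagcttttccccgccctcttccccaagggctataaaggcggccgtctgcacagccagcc
Il1b: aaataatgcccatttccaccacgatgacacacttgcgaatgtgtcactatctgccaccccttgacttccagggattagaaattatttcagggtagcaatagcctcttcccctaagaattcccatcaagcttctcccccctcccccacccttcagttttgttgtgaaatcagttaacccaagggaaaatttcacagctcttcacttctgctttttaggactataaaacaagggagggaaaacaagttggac

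The match began 164 bases before the start of Ctss, 30 bases before C1qb, 40 bases before Trem2 and 117 bases before Tnf, and the Il1b window held none. Tnf, with the letters, and Il1b, without them, were both near 0 in the libraries.

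Levels of different genes were compared per kilobase of exon. Ctss, which encodes a lysosomal cysteine protease, stood highest with 34.3 ± 8.58 CPM per kb (SD, n = 8 libraries), followed by C1qa with 25.4 ± 7.18 and C1qb with 16.2 ± 4.22 CPM per kb. Csf1r had 11.9 ± 1.60 CPM per kb, and P2ry12, Axl, Tyrobp, C1qc, Cx3cr1 and Laptm5 followed between 8.94 and 10.2 CPM per kb. The neighbours among these last 6 differed by less than their SD. At the other end of the order, the 8 genes below the filter had between 0 (Il1b) and 0.416 CPM per kb (Ccl3), and Ptprc, a tested gene, had 0.121 CPM per kb.

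No microglia gene passed the test in SS against CTR. Of the 28 tested members, 0 were called by edgeR's quasi-likelihood test at an adjusted p of 0.05, where 0.0847% of all 16538 tested genes did, and 0 in DESeq2, where 0.419% of genes did and the smallest adjusted p of a member was 0.493. At an unadjusted p under 0.05, 2 members were lower in SS (Cx3cr1 and Mertk, 7.14% of 28, against a background of 3.70%) and 0 were higher, against 2.85%. DESeq2 also had 2 members under this threshold. In no member were the CTR and SS libraries free of overlap. Over all tested genes, 2.21% had every SS library below every CTR library and 2.47% the reverse. With shares this low, 0 of 28 members does not set the members apart from all genes.

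The fitted log2 fold change was below 0 in 22 of 28 members (78.6%) and in 49.4% of all tested genes. The median over the members was -0.14 and over all genes 0.0037 (log2). The members' 95% intervals extended a median of 0.61 (log2) to either side of the estimate, and 16 of 28 lay within 1 log2 unit of 0 on both sides. A doubling or halving was thus outside the interval for those 16, and in at least 1 direction inside it for the rest.

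**Figure D1:**
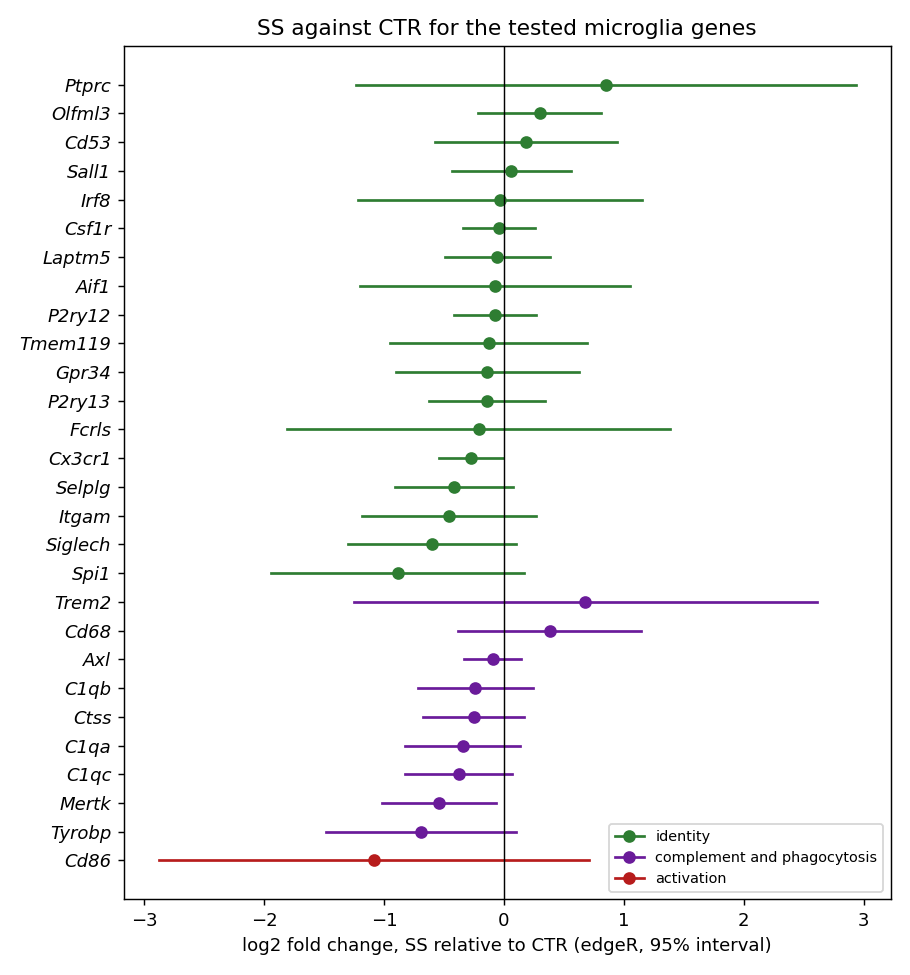
Fitted log2 fold change of SS relative to CTR for the 28 tested microglia genes (points) with 95% intervals (lines), coloured by role, with 0 drawn as a vertical line. Of the points, 22 lie below 0, and only the intervals of Cx3cr1 and Mertk leave out 0, neither past the threshold after adjustment.

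Among the identity genes, the receptors Csf1r, Cx3cr1 and P2ry12 were read at a mean of 10 CPM or more, and P2ry13, Siglech, Itgam, Gpr34 and Fcrls below it. Cx3cr1, the receptor for the neuronal chemokine fractalkine (chr9:119901616-120069879), had 47.7, 47.1, 44.4 and 37.9 CPM in CTR (replicates 1, 2, 3 and 5, an order kept for all genes) and 36.9, 35.1, 36.04 and 38.2 CPM in SS (replicates 2, 3, 4 and 5). The CTR libraries stood above the SS libraries except for CTR-5, which lay below SS-5. The means were 44.3 ± 4.52 and 36.6 ± 1.34 CPM (SD, n = 4 each), and the log2 fold change was -0.28 (SE 0.12, interval -0.54 to -0.01, adjusted p = 0.755, exact permutation p = 0.0571). Without CTR-5 and SS-5 the log2 fold change was -0.37 (adjusted p = 0.371), and without CTR-1 and CTR-2 it was -0.17.

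Csf1r, the receptor on which microglial survival depends, had 64.4, 88.6, 66.9 and 59.1 CPM in the CTR libraries, in the same order, and 73.6, 67.0, 60.7 and 70.1 CPM in the SS libraries. CTR-2 was the highest and the SS libraries lay inside the CTR range. The log2 fold change was -0.04 (SE 0.14, interval -0.34 to 0.26, adjusted p = 0.969), a narrow interval for this set. Csf1r shares 873 exon bases with Hmgxb3 on the opposite strand, which had 9139 counts over the libraries, and reads from the shared bases cannot be told apart without strand.

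P2ry12, the purinergic receptor that directs microglial processes, had 23.2, 30.7, 22.1 and 31.0 CPM in CTR and 26.8, 25.6, 25.9 and 23.1 CPM in SS. All SS values lay inside the CTR range, and the log2 fold change was -0.08 (SE 0.16, interval -0.42 to 0.27, adjusted p = 0.940). Its neighbour P2ry13 had a log2 fold change of -0.14 (SE 0.22). Both genes lie within Med12l, which is on the opposite strand and shares 9 exon bases with P2ry12 and 0 with P2ry13.

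Tmem119, a membrane protein used as a marker of resident microglia, varied far more between CTR libraries than between groups. It had 5.89, 25.2, 10.7 and 11.995 CPM in CTR and 12.3, 12.2, 8.10 and 16.7 CPM in SS. The log2 fold change was -0.13 (SE 0.38, interval -0.95 to 0.69, adjusted p = 0.960). Selplg, the P-selectin ligand, had 29.0, 25.9, 21.9 and 17.2 CPM in CTR and 12.2, 15.6, 22.6 and 20.1 CPM in SS. Its SS-2 and SS-3 libraries lay below the CTR range and its SS-4 and SS-5 libraries inside it. The log2 fold change was -0.41 (SE 0.22, interval -0.91 to 0.08, adjusted p = 0.758). It was -0.15 without CTR-1 and CTR-2 and -0.61 without CTR-5 and SS-5.

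Of the remaining identity genes above 10 CPM, Sall1, a transcription factor that maintains microglial identity, had 18.3, 44.6, 36.3 and 26.4 CPM in CTR and 34.1, 34.3, 30.3 and 32.6 CPM in SS. The SS values sat together in the middle of a wide CTR range, with a log2 fold change of 0.06 (adjusted p = 0.972, SE 0.23). Laptm5, a lysosomal membrane protein of blood-lineage cells, had 25.2, 49.0, 32.3 and 31.6 CPM in CTR and 29.2, 28.4, 38.0 and 37.3 CPM in SS, again inside the CTR range (log2 fold change -0.06, adjusted p = 0.970, SE 0.20). Olfml3, a secreted protein of microglia, had 15.04, 8.61, 18.9 and 13.8 CPM in CTR and 16.4, 15.3, 21.4 and 16.3 CPM in SS. Only SS-4 lay above the CTR range, and the log2 fold change was 0.30 (SE 0.23, interval -0.21 to 0.81, adjusted p = 0.830).

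The largest estimates among the identity genes came from low counts. Spi1, which encodes the transcription factor PU.1, had 6.98, 5.58, 4.67 and 1.503 CPM in CTR and 2.39, 2.10, 2.22 and 3.39 CPM in SS. CTR-5 was the lowest of the libraries and the other 3 CTR libraries were the highest, with a log2 fold change of -0.89 (SE 0.48, interval -1.94 to 0.17, adjusted p = 0.760). It was -1.36 without CTR-5 and SS-5 (adjusted p = 0.343) and -0.28 without CTR-1 and CTR-2. Ptprc, which encodes the leukocyte phosphatase CD45, had 0, 20, 93 and 58 counts in CTR and 118, 93, 119 and 56 counts in SS. Its log2 fold change of 0.85 (SE 0.95, interval -1.24 to 2.93, adjusted p = 0.886) was 0.06 without CTR-1 and CTR-2, the 2 libraries in which low genes dropped out and which held its lowest counts.

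The other identity genes spanned log2 fold changes of -0.60 to 0.18, and none passed the test. Siglech, a sialic acid-binding receptor, stood at -0.60 (SE 0.32), and Itgam, the integrin chain CD11b, at -0.46 (SE 0.33). Without CTR-1 and CTR-2 they stood at -0.07 and -0.05, and Itgam stood at -0.27 without CTR-2 alone and -0.39 without CTR-1 alone. Without CTR-5 and SS-5, Siglech stood at -0.82 and Itgam at -0.66. Itgam shares 3450 of its 5024 exon bases with Gm49368 on the same strand, which had 0 counts over the libraries. How reads from these shared bases were counted is not given in the sources used here, so the level of Itgam may rest on part of its exons. Gpr34, a lysophospholipid receptor, stood at -0.14 (SE 0.35), Aif1, which encodes the marker Iba1, at -0.08 (SE 0.52), and the transcription factor gene Irf8 at -0.03 (SE 0.54). Cd53, a tetraspanin, stood at 0.18 (SE 0.35). Fcrls, an Fc receptor-like protein, showed how far single libraries spread: it had 7, 299, 42 and 223 counts in CTR and 165, 180, 85 and 166 counts in SS (log2 fold change -0.21, SE 0.73).

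**Figure D2:**
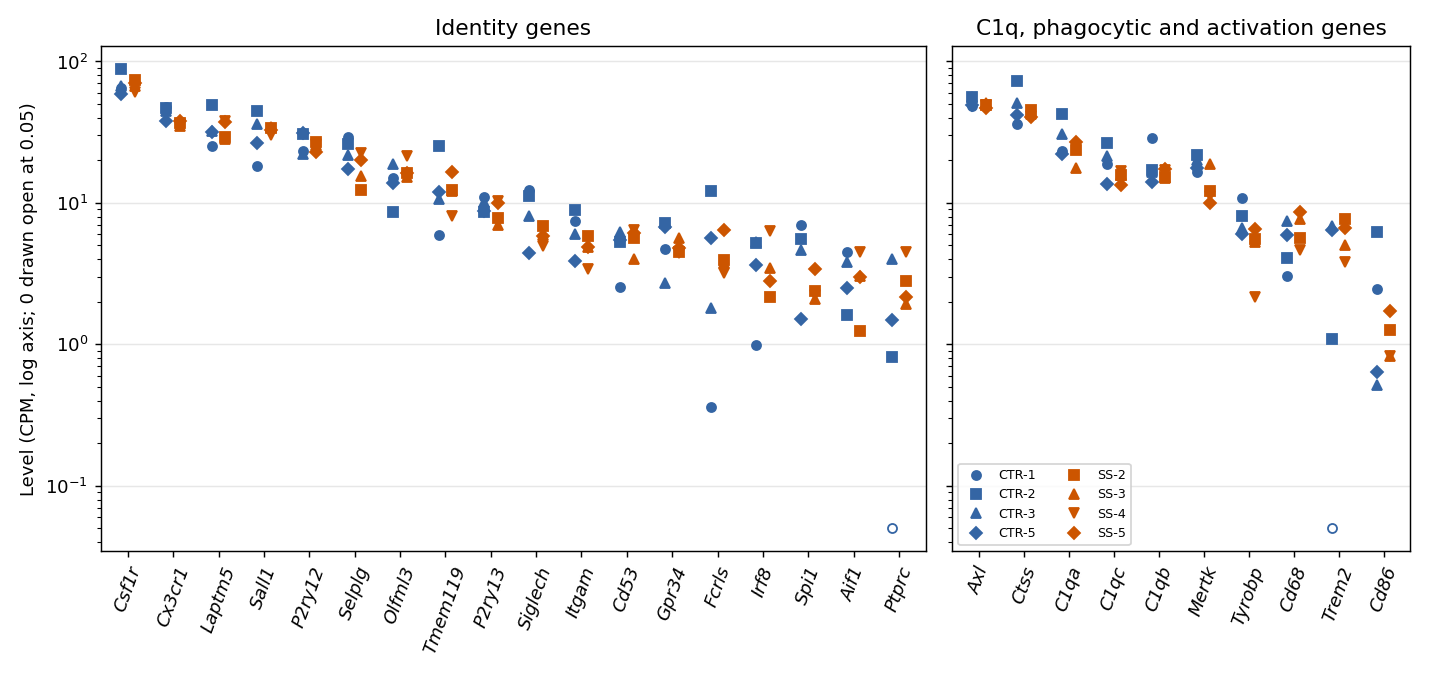
Level of the 28 tested microglia genes in each library in CPM on a log axis, with identity genes on the left and C1q, phagocytic and activation genes on the right (blue, CTR; orange, SS; the symbol gives the replicate number, and 0 is drawn open at 0.05). The CTR and SS libraries overlap for every gene, and the CTR-1 values of Ptprc and Trem2 are at 0.

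The 3 C1q chains, which assemble into the recognition molecule of the classical complement pathway and tag synapses and debris, lie side by side on the minus strand of chromosome 4 (C1qb, chr4:136880129-136886187; C1qc, chr4:136889804-136893065; C1qa, chr4:136895917-136898803). C1qa had 23.3, 42.5, 30.5 and 22.2 CPM in CTR and 23.8, 17.7, 24.7 and 27.0 CPM in SS. C1qb had 28.7, 17.0, 16.7 and 14.1 CPM in CTR and 15.3, 15.1, 17.1 and 17.3 CPM in SS. C1qc had 18.8, 26.5, 21.5 and 13.7 CPM in CTR and 15.9, 15.8, 16.7 and 13.4 CPM in SS. The highest value of each chain was a CTR library, but not the same one: CTR-2 for C1qa and C1qc, and CTR-1 for C1qb.

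All 3 chains had lower means in SS than in CTR, and none passed the test. The means of C1qa were 29.6 ± 9.36 CPM in CTR and 23.3 ± 3.99 CPM in SS (log2 fold change -0.35, SE 0.22, interval -0.83 to 0.13, adjusted p = 0.787). The means of C1qb were 19.1 ± 6.49 and 16.2 ± 1.14 CPM (log2 fold change -0.24, SE 0.22, interval -0.72 to 0.24, adjusted p = 0.858). The means of C1qc were 20.1 ± 5.35 and 15.4 ± 1.45 CPM (log2 fold change -0.38, SE 0.21, interval -0.83 to 0.07, adjusted p = 0.758). Without CTR-2 the log2 fold change of C1qa was -0.12 and that of C1qc -0.22, and without CTR-1 that of C1qb was 0.02.

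Among the phagocytic receptors, Mertk, a receptor tyrosine kinase that recognises dying cells and synapses (chr2:128698956-128802894), had 16.6, 21.9, 19.96 and 17.6 CPM in CTR and 12.1, 18.7, 11.2 and 9.94 CPM in SS. SS-3 lay inside the CTR range and the other 3 SS libraries below it. The means were 19.0 ± 2.37 and 12.999 ± 3.91 CPM, and the log2 fold change was -0.54 (SE 0.22, interval -1.02 to -0.07, adjusted p = 0.755, exact permutation p = 0.0857). It was -0.47 without CTR-5 and SS-5 and -0.52 without CTR-1 and CTR-2. Whole punches do not show which cells the RNA of Mertk, or of Axl below, came from.

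Axl, the receptor tyrosine kinase of the same family, had the smallest SE of the 28 tested genes, with 48.8, 55.8, 55.8 and 49.4 CPM in CTR and 49.2, 51.0, 49.0 and 47.2 CPM in SS. Its log2 fold change was -0.09 (SE 0.11, interval -0.33 to 0.14, adjusted p = 0.890). Ctss had 35.9, 73.2, 51.2 and 42.0 CPM in CTR and 45.6, 42.5, 41.2 and 40.5 CPM in SS. The SS libraries lay within a few CPM of each other and inside the CTR range, with a log2 fold change of -0.25 (SE 0.19, interval -0.67 to 0.17, adjusted p = 0.822).

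Trem2, a lipid-sensing receptor, and Tyrobp, the adaptor through which it signals, had estimates of opposite sign. Tyrobp had 10.9, 8.04, 6.61 and 6.04 CPM in CTR and 5.52, 5.29, 2.15 and 6.55 CPM in SS. Only SS-5 reached the CTR range, and the log2 fold change was -0.69 (SE 0.36, interval -1.48 to 0.10, adjusted p = 0.755, exact permutation p = 0.0571). Trem2 had 0, 1.09, 6.87 and 6.47 CPM in CTR and 7.70, 5.02, 3.84 and 6.70 CPM in SS. CTR-1 and CTR-2 were its lowest libraries. The log2 fold change was 0.68 (SE 0.88, interval -1.25 to 2.61, adjusted p = 0.902) over all libraries and -0.19 without those 2. Cd68, a lysosomal glycoprotein of phagocytes, had a log2 fold change of 0.38 (SE 0.35, interval -0.38 to 1.15). Without CTR-1 and CTR-2 the estimate for Tyrobp was -0.37 and that for Cd68 was 0.0075.

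Of the 9 activation genes, 8 were too low to read: they did not pass the filter on low counts. The 8 genes together had 325 counts in the 8 libraries, and 43 of their 64 gene and library values were 0. Of the cytokines and chemokines, Il1b had 0 counts in all 8 libraries, which allows at most 0.0622 to 0.155 CPM depending on the library, and Tnf had 5 counts in SS-5 and 0 elsewhere. Ccl2, a chemokine that draws in monocytes, had 30 counts in CTR-1, 11 in SS-2 and 0 in the other 6 libraries.

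Ccl3 had 0, 20, 1 and 5 counts in CTR and 16, 24, 0 and 18 counts in SS, and Ccl4 had 4 counts in CTR-5, 17 in SS-3 and 0 elsewhere. Ccl3 thus had counts in 6 of the 8 libraries, and Ccl2 and Ccl4 in 1 library of each group. Cybb, the catalytic subunit of the phagocyte NADPH oxidase, had 0, 31, 0 and 5 counts in CTR and 63, 9, 0 and 22 counts in SS. Itgax, the integrin chain CD11c, had 0, 0, 8 and 2 counts in CTR and 17, 10, 0 and 0 counts in SS, and Cst7, which encodes cystatin F, had 7 counts in SS-2 alone. No direction was read from these genes, and their absence from a library was not distinguishable from a low level at this depth.

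**Figure D3:**
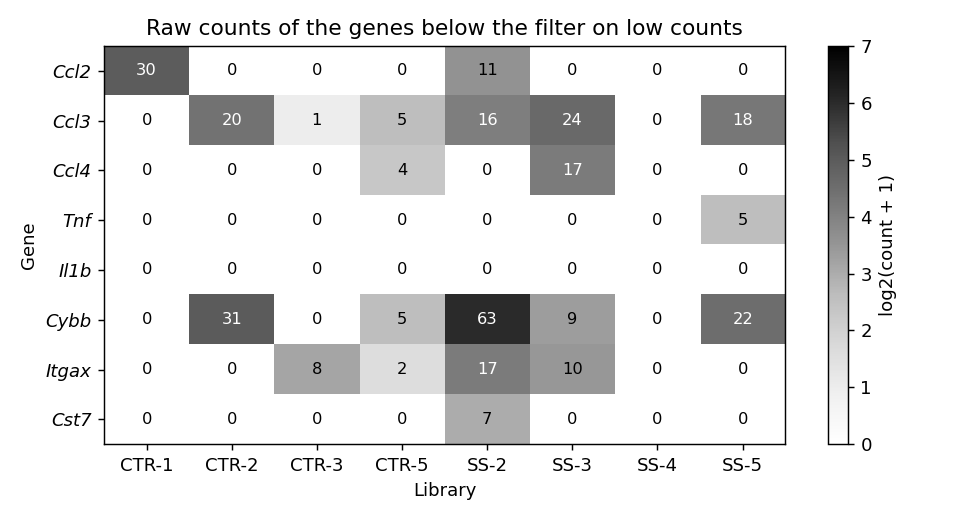
Raw counts of the 8 activation genes below the filter in each of the 8 libraries, with the count written in each cell and the shade giving log2(count + 1). Il1b is at 0 throughout, and no gene has counts in every library of a group.

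Cd86, a costimulatory ligand for T cells, was the only activation gene tested. It had 48, 155, 12 and 25 counts in CTR and 53, 40, 22 and 45 counts in SS. CTR-2 alone held more than any other pair of libraries, and the log2 fold change was -1.08 (SE 0.82, interval -2.88 to 0.71, adjusted p = 0.820). It was -0.05 without CTR-2 and 1.003 without CTR-1 and CTR-2, so that its direction rested on these libraries.

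The spread of the set lay in the CTR group. The SD of log2 CPM was larger in CTR than in SS in 23 of 28 members (82.1%), a share near the 83.1% of all tested genes. The median SD was 0.493 in CTR and 0.287 in SS for the members, and 0.371 and 0.192 for all genes. CTR-2 had the highest value of the 8 libraries in 12 of the 28 members, and the median deviation of the members from their own means was 0.47 (log2) there, against -0.008 for all genes. CTR-1 had the highest value in 7 members and the lowest in 10. In the other libraries the median deviation lay between -0.08 and 0.17.

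**Figure D4:**
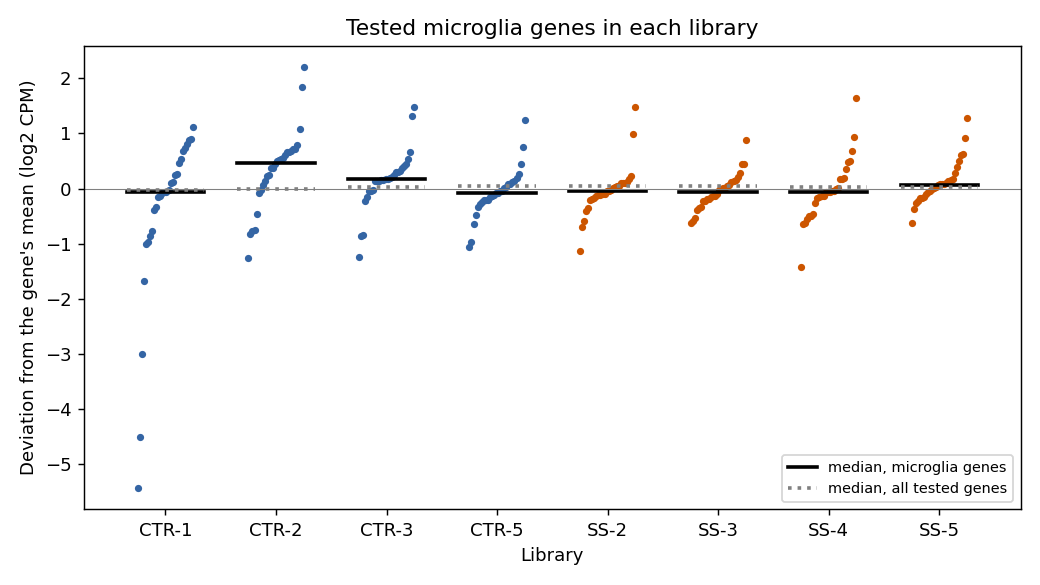
Deviation of each of the 28 tested microglia genes from its mean over the 8 libraries (log2 CPM), by library, with the median of the microglia genes (black line) and of all tested genes (dotted line). The microglia genes sit 0.47 above their means in CTR-2, and the lowest points, those of CTR-1, belong to genes with few or no counts.

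Leaving out libraries moved the median of the set without bringing any member past the threshold. The median log2 fold change was -0.03 without CTR-2, when 16 of 28 members lay below 0, and -0.08 without CTR-1 and CTR-2, when 17 did. Without CTR-5 and SS-5 it was -0.28, with 20 of 28 members below 0 (background 48.5%). In these 6 libraries 5 members had an unadjusted p under 0.05, all lower in SS (background 5.54%), and 0 passed after adjustment. The 3 remaining CTR libraries then lay above the 3 remaining SS libraries in 6 members, Cx3cr1, Siglech, Itgam, Spi1, C1qc and Tyrobp, where 9.28% of all genes did the same. With single SS libraries left out the median lay between -0.23 (without SS-4) and -0.11 (without SS-2), and it was -0.22 without SS-5, -0.22 without CTR-1, -0.24 without CTR-3 and -0.17 without CTR-5. The size of the median therefore depended on which libraries of either group were included.

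Further genes of microglia and their signals gave no call in edgeR either. Of 20 other microglia-enriched genes, all tested, 0 were called, 9 had a log2 fold change below 0 and the median was 0.09. Hpgds, a prostaglandin D synthase, was the only one whose groups did not overlap: it had 3.93, 4.73, 5.62 and 5.88 CPM in CTR and 6.58, 7.16, 11.2 and 7.89 CPM in SS. Its log2 fold change was 0.70 (adjusted p = 0.755, SE 0.28), and the exact permutation p was 0.0286, the smallest that 4 against 4 libraries can give. Among all tested genes, 2.47% had every SS library above every CTR library, and 2.21% had every SS library below.

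Of 8 other complement genes, 6 were tested and 0 were called. The most abundant, Cr1l, a complement regulator, had a log2 fold change of -0.13 (adjusted p = 0.913, SE 0.19). Among 12 genes of the disease-associated state of microglia, 8 were tested and 0 called by edgeR. At an unadjusted p under 0.05, 2 of these were lower in SS (Spp1 and Lpl) and 0 higher. The shares over all tested genes were 3.70% and 2.85%. Lpl, named after its values were seen, stood at -1.37 (SE 0.52, adjusted p = 0.755). It had 55.7 CPM in CTR-5 and 10.9 to 13.6 CPM in the other CTR libraries. Apoe, the most abundant and mainly an astrocyte gene, had 2249 ± 577 CPM in CTR and 1838 ± 86.9 CPM in SS (log2 fold change -0.29, adjusted p = 0.755, SE 0.14). Spp1, which encodes osteopontin and is also expressed by neurons, had 13.3, 13.9, 13.5 and 7.97 CPM in CTR and 4.40, 5.04, 6.63 and 3.89 CPM in SS. Its SS libraries were all below its CTR libraries, and the log2 fold change was -1.28 (SE 0.27, interval -1.87 to -0.69). The adjusted p was 0.241 in edgeR and 0.00344 in DESeq2, so that the call depended on the tool. DESeq2 is the tool that the authors used.

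Of 17 genes of inflammatory signalling, 14 were tested and 0 called, with a median log2 fold change of -0.10. Il6 and Il10 had 0 counts in all libraries, and Rela, the most abundant and a subunit of NF-kB, had a log2 fold change of -0.01 (adjusted p = 0.997, SE 0.17). Of 12 interferon response genes, 11 were tested and 0 called. Isg15, an interferon-induced ubiquitin-like protein, had 2.12, 1.37, 1.73 and 0.764 CPM in CTR and 0.717, 0.498, 0.527 and 0.424 CPM in SS (log2 fold change -1.45, adjusted p = 0.755, SE 0.76). Irf7, a transcription factor of the interferon response, had 2.17, 1.70, 3.97 and 1.91 CPM in CTR and 1.24, 0.913, 1.32 and 1.35 CPM in SS (log2 fold change -1.01, adjusted p = 0.772, SE 0.58). These 2 low genes were the only ones of the list whose groups did not overlap, where 2.21% of all tested genes had SS lower without overlap. The only one with an unadjusted p under 0.05 was Irf9, a transcription factor of the same response, named after its values were seen, which went the other way (log2 fold change 0.71, SE 0.27, interval 0.12 to 1.30, adjusted p = 0.755). The most abundant one, Stat2, had a log2 fold change of 0.16 (SE 0.17).

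The ligands by which other cells address microglia were also not called in any of 10 cases. Cx3cl1, the fractalkine ligand of Cx3cr1, was the most abundant with 388 ± 43.3 CPM in CTR and 347 ± 14.9 CPM in SS (log2 fold change -0.16, adjusted p = 0.773, SE 0.09). The ligands of Csf1r had log2 fold changes of 0.19 (Csf1, SE 0.18) and -0.14 (Il34, SE 0.18), and Gas6, which bridges dying cells to Mertk and Axl, of -0.07 (SE 0.12). The intervals of these ligands all included 0.

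Of the marker lists of other cell types, only that of dopamine neurons held genes called by edgeR. In stained VTA sections of other mice, the authors counted similar numbers of tyrosine hydroxylase-positive neurons in both groups. In males they also reported weaker staining of this enzyme and of the dopamine transporter in SS, and smaller transporter currents. The 6 dopamine neuron markers summed to between 710 and 1607 CPM in CTR and between 130 and 205 CPM in SS, and 4 of them (Th, Slc6a3, Ddc and Slc18a2) were called lower in SS. The most abundant, Slc6a3, the dopamine transporter gene, had 448 ± 186 CPM in CTR and 6.19 ± 4.13 CPM in SS (log2 fold change -6.22, adjusted p = 0.00053). Pitx3, a transcription factor of these neurons, also had no overlap between groups (log2 fold change -5.55, adjusted p = 0.0641 in edgeR and 4.35e-09 in DESeq2), whereas the ranges of Nr4a2, the remaining marker, overlapped (log2 fold change 0.16, SE 0.19, adjusted p = 0.900). The 6 general neuron markers summed to between 4788 and 5376 CPM in CTR and between 4208 and 4485 CPM in SS, with 0 called by edgeR. Snap25, a synaptic vesicle fusion protein, was the only one without overlap (log2 fold change -0.36) and had an adjusted p of 0.241 in edgeR and 0.0108 in DESeq2. Astrocyte, oligodendrocyte, endothelial and erythroid markers overlapped between the groups in their summed levels, with 0 called in each list. The log2 fold changes had a median of -0.15 over the astrocyte markers (Aldoc, the most abundant, -0.21), -0.08 over the oligodendrocyte markers (Mbp, -0.14), 0.18 over the endothelial markers (Flt1, -0.04) and -0.16 over the tested erythroid markers (Hbb-bs, -0.16). Of the 4 tested border macrophage markers, Mrc1, the most abundant, stood at 0.70 (SE 0.63) and the other 3 below 0, with a median of -0.30. Whether the content of neurons in the punches had a part in the microglial values was not tested.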

How the data were processed

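Libraries were made by the authors with a kit for mRNA from bilateral VTA punches of 4 CTR and 4 SS mice. Per the authors, Cutadapt was used for trimming, STAR for alignment to mm10 and htseq-count for counting. The deposited values are raw counts per gene, without normalization. Whether counting used strand is not given in the sources used here. Groups were taken from the labels, which name no batch.

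In R 4.3.3, genes were filtered with filterByExpr of edgeR 4.0.16 (minimum count 10, minimum total 15), normalized by TMM and tested with glmQLFit and glmQLFTest, on group alone, and p-values were adjusted by Benjamini-Hochberg over 16538 genes (threshold 0.05). CPM used TMM-scaled totals. Log2 CPM (prior count 2) was compared by exact two-sided permutation over 70 assignments (smallest p 0.0286). Members not passing the filter, or with a group mean under 10 counts, were called too low to read. All members are reported, with full statistics for those of at least 10 CPM, for those without overlap between groups and for the extremes of each role; of each further list, the most abundant, called and non-overlapping genes are named. A gene selected this way is not reported here. Sums of other cell type markers were given as levels. Members and lists were chosen with earlier results of these data known. Positions and exon lengths came from GENCODE M21 (GRCm38). Alternatives were DESeq2 1.42.0, limma 3.58.1 voom, other size factors and filters, a replicate block, and libraries left out. The fits were tested on simulated data.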

Additional observations from a re-analysis of the deposited data

How the results depend on the processing

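No microglia gene was called under any of the alternatives run, and the median log2 fold change of the tested members stayed below 0, between -0.28 and -0.03. Over all genes, 14 were called; there were 81 in DESeq2, 22 without a filter on low counts, 22 with a mean count of at least 50, 24 at an adjusted p under 0.1, 27 with the bias-adjusted quasi-likelihood estimate (added after the data were seen), 9 without CTR-5 and SS-5, and 6 to 19 with 1 library left out, each SS library lowering the count (SS-2, 8; SS-3, 7; SS-4, 6; SS-5, 9). The groups share the replicate numbers 2, 3 and 5, but same-numbered libraries did not deviate together (correlations 0.02, -0.01 and 0.02 across genes). The fit with the replicate number as a block called 9 genes and 0 members, with estimates of -0.055 for Sall1 and -0.12 for Cd53.

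Members whose estimates changed sign were the following, and the cause was not tested. Without CTR-5 and SS-5, the log2 fold changes were 0.044 for P2ry12, 0.0017 for Gpr34, -0.011 for Sall1 and 0.059 for Irf8. Without CTR-1 and CTR-2 they were 0.12 for Tmem119, 0.11 for Csf1r, 0.027 for Gpr34, 0.19 for Fcrls, -0.080 for Cd53, 0.056 for Laptm5, 0.074 for C1qb, -0.19 for Trem2 and 1.003 for Cd86. With voom, Fcrls was at 0.24. With 1 library left out the ranges were -0.35 to 0.18 for Aif1, -0.36 to 0.022 for C1qb, -0.028 to 0.32 for Cd53, -0.11 to 0.10 for Csf1r, -0.60 to 0.70 for Fcrls, -0.36 to 0.037 for Gpr34, -0.42 to 0.16 for Irf8, -0.18 to 0.16 for Laptm5, -0.16 to 0.0024 for P2ry12, -0.12 to 0.28 for Sall1 and -0.37 to 0.37 for Tmem119. All tested members not listed above as changing sign kept it under all 18 alternatives. Cx3cr1 (-0.37 to -0.17) and Mertk (-0.77 to -0.43) were among them, so that a kept sign was not particular to these genes. With 4 libraries a group, changes smaller than the intervals given could not be read.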
